A study of Chlorocebus aethiops with 30 samples.

Results

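The genes described here are the members of the authors' union table, a deposited list of 340 genes with 1 mean per group, that are absent from the authors' comparison of trypsin with TrypLE directly after detachment. They number 134 of 340. They were chosen by the authors' p-values at 0 h: the comparison table holds 1237 genes, each with an unadjusted p below 0.05, and a member is a gene with no difference listed there. The likeness of the enzymes at 0 h is therefore the choice itself and not a finding. The files give these genes by number only. Of the 134, 0 have a symbol in any file, 0 are in the pathway tables and 4 carry an identifier that is not a plain gene number, so that no function can be attached to them here.

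The study sequenced RNA of Vero cells, a wild-type line of kidney epithelium from the African green monkey. Its 30 samples form 10 groups of 3. Of these, 7 groups have a mean in the union table. The control was detached at 37 °C with a solution without enzyme and harvested at once. Trypsin at 37 °C and TrypLE at 37 °C were each followed to 0, 8 and 24 h. Cells at 0 h were harvested straight from the enzyme, whereas those at 8 and 24 h had gone back into culture and were then lifted with the enzyme-free solution. Time in culture, reattachment and this later change of reagent cannot be told apart in the later groups. The 3 groups given TrypLE from 4 °C at 25 °C, 9 samples, were not analysed here. All groups are of the same line, with no second line beside it, and a check of epithelial markers was not possible among genes without symbols.

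As background, adherent epithelial cells are held by integrins on the matrix and by cadherins between neighbours. Trypsin cuts surface proteins after lysine and arginine, and TrypLE is a recombinant protease of the same specificity. Loss of adhesion alters tension in the actin cytoskeleton, and signals from adhesion sites and growth factor receptors switch on early response genes that fade again, while slower programmes follow as cells reattach, spread and resume division.

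The values are the authors' group means, taken to be on an FPKM scale, that is per kilobase of gene and for a common sequencing depth. They carry no error and no n for these genes, because the only values for single libraries belong to genes that are not members. Differences are given as log2(mean + 1) of a group minus that of the control, so that a difference of 1 is called 2-fold here. It is a rule of size and not a test, and it understates the change of genes with low values. The spread between libraries was measurable only in the other 206 genes of the union table at 0 h, where the median SD over 3 libraries on this scale was 0.19 after trypsin and 0.15 after TrypLE. For a difference between means of 3 such libraries this corresponds to a typical SD of 0.15 and 0.12, and to 0.26 and 0.31 at the 90th percentile of genes. Without trypsin replicate 1 the median SD was 0.09, and without TrypLE replicate 1 it was 0.08. Those 206 genes were listed for a difference and had a median control level of 64.8, against 10.4 for the members, and the spread of the members is unknown. Depth per library is not given in the files used here.

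The members spanned a wide range of levels. Their highest group mean had a median of 17.2 and ran from 0.314 to 1188 on the FPKM scale. In 4 members it stayed under 1, and none of the 134 was at 0 in any of the 7 groups. At 0 h the largest difference between enzymes among members was 0.57, in gene 119624526, and the next was -0.54, with means of 18.0 after trypsin and 26.7 after TrypLE. Just outside, MACF1, which links microtubules to actin, had an unadjusted p of 0.0497 in the authors' deposited table and means of 9.03 and 7.48, a difference of 0.24. Some members thus differed more in their means than listed genes did.

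Directly after detachment, and with the means as deposited, more members lay below the control than above it, though for trypsin the side depends on the scaling, as given with the 2-fold counts at 0 h. After trypsin 90 members were below and 44 above, with a median difference of -0.37. After TrypLE the same numbers, 90 and 44, were below and above, with a median of -0.38. Averaged over both enzymes, the 90 lower members had a median of -0.46 and the 44 higher members 0.45. No member had an average between -0.19 and 0.30, so the genes form a lower and a higher set with a gap around the control level. The labels and files do not say how the authors chose the 340 genes. The 0 h difference from control may have been part of that choice, and it is given as a description only. Both enzymes are compared with the same control mean, so any error in that mean enters both.

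**Figure D1:**
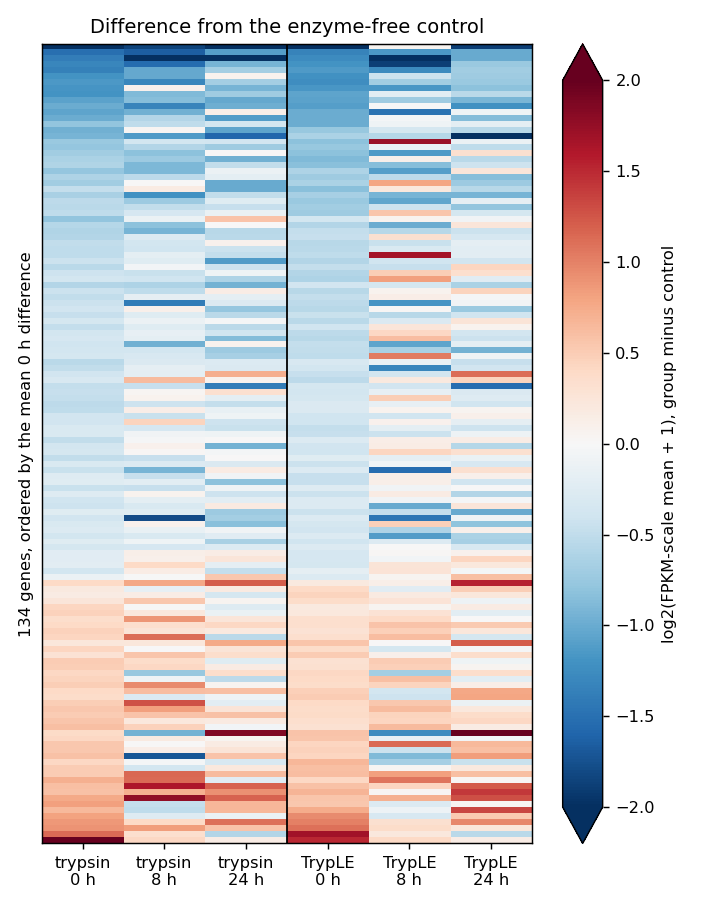
Each row is 1 of the 134 genes and each column 1 group, and colour gives log2(FPKM-scale mean + 1) of the group minus the control, with colours capped at 2 and -2. Rows are ordered by the mean 0 h difference, and the 0 h columns of both enzymes show a lower set of 90 and a higher set of 44, whereas the 8 and 24 h columns are mixed within each set.

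Differences of at least 2-fold at 0 h were few. After trypsin 2 members were at least 2-fold above the control, against 1.76% of all 340 genes, and 11 were at least 2-fold below, against 9.71%. After TrypLE 4 members were above, against 4.12%, and 11 below, against 4.12%. At 0 h, 12 members passed this size with both enzymes, 2 above and 10 below, and 4 with 1 enzyme alone. Of the other 206 genes, which were listed for a difference between the enzymes at that time, 4 passed with both, 23 with 1 alone and at least 2-fold apart, and 8 with 1 alone but less than 2-fold apart. When each group was centred on the median of all 340 genes, which at 0 h was -0.48 after trypsin and 0.07 after TrypLE, the trypsin split became 17 above and 2 below, while TrypLE had 3 above and 14 below. The excess of lower members after trypsin therefore turns with this scaling, in a list whose other genes were mostly lower after trypsin.

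At 8 h, 6 members were at least 2-fold above the control after trypsin, against 2.06% of all 340 genes, and 13 below, against 8.24%. After TrypLE 5 were above, against 2.94%, and 17 below, against 10.6%. At 24 h the trypsin counts were 5 above, against 2.94%, and 11 below, against 6.47%. The TrypLE counts were 8 above, against 4.41%, and 7 below, against 4.71%, and became 9 and 4 when centred on the median of all 340 genes, which was -0.14 in that group. The median distance from the control, regardless of direction, went from 0.49 at 0 h to 0.40 at 8 h and 0.40 at 24 h after trypsin. After TrypLE it was 0.48, 0.41 and 0.38. Over all 340 genes this median distance was 0.53, 0.28 and 0.36 after trypsin and 0.39, 0.23 and 0.33 after TrypLE. At 8 h the members were thus further from the control than the whole list with either enzyme. The share of members close to the control, within 0.25 on this scale, was 11 of 134 at 0 h, 47 at 8 h and 50 at 24 h after trypsin, and 5, 44 and 51 after TrypLE. Over all 340 genes it was 51, 157 and 136 after trypsin and 101, 177 and 138 after TrypLE. The few members close to the control at 0 h are the gap described above, which the choice of genes may have set.

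Over the whole course, 52 of 134 members were at least 2-fold from the control in some group, or 38.8%, against 33.2% of all 340 genes. The other 82 members, or 61.2%, stayed within 2-fold of the control in all 6 groups, as did 145 of the other 206 genes, or 70.4%. The control cells were detached too, without enzyme, so a difference from them is no measure of detachment itself. A course is called early where a gene was past 2-fold at 0 h and at no later time. It is called lasting where the gene was past at 0 h and again at 8 or 24 h on the same side. A lasting gene may thus be near the control at one of the later times. The course is late where the gene was past only at 8 or 24 h, and switching where it was past on both sides. After trypsin 34 members were past 2-fold at some time, against 21.5% of all 340 genes, made up of 5 early, 8 lasting and 21 late courses. After TrypLE 42 were, against 24.1%, with 8 early, 7 lasting, 26 late and 1 switching course. Late courses were the most frequent kind with either enzyme, as they were over all 340 genes. There 19 were early, 15 lasting and 33 late after trypsin, and 13, 14 and 53 after TrypLE. A late course can be met at 8 or at 24 h and an early one only at 0 h, which favours the late kind. Members past 2-fold at 0, 8 and 24 h numbered 13, 19 and 16 after trypsin and 15, 22 and 15 after TrypLE. Of the 52 members past 2-fold in some group, the kind was the same with both enzymes in 8 late, 5 lasting and 3 early members. Another 17 were late after TrypLE and within 2-fold throughout after trypsin, and 10 were the reverse. A member can fall in either set with the enzymes less than 2-fold apart, by lying on different sides of the limit. One of the 17 had differences from control of -0.81 after trypsin and -1.13 after TrypLE at 8 h. These sets are therefore not counts of enzyme-specific courses. The cross-count of kinds was not made for the other 206 genes, so it has no background to be read against.

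**Figure D2:**
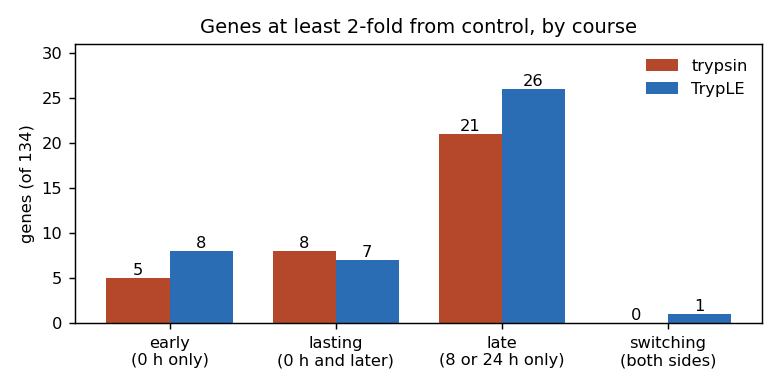
Bars give the number of the 134 genes in each kind of course after trypsin and after TrypLE, where a gene counts once its mean is at least 2-fold from the control on the log2(mean + 1) scale. The late bars, 21 for trypsin and 26 for TrypLE, are the tallest, and the remaining 100 and 92 genes were within 2-fold throughout.

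The members past 2-fold at 0 h were followed to the later times. Of the 2 members at least 2-fold above the control at 0 h after trypsin, 0 were so at 8 or at 24 h. Of the 4 after TrypLE, 0 were so at either time, and all 4 were within 0.5 of the control at 8 h. Of the 11 members at least 2-fold below the control at 0 h after trypsin, 7 were still so at 8 h and 4 at 24 h, with medians of -1.20, -1.02 and -0.92. Of the 11 after TrypLE, 5 were still so at 8 h and 4 at 24 h, with medians of -1.19, -0.72 and -0.82. These genes were picked at 0 h for lying far from a control mean that the later differences share. The follow-up was not made over all 340 genes, so lasting or fading cannot be read as a trait of the members. Counted by course on either side, 5 members were early and 8 lasting after trypsin, against 19 and 15 of all 340 genes. After TrypLE these were 8 and 7, against 13 and 14.

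The member furthest above the control was gene 119624526. Its mean was 3.47 in the control, 17.9 after trypsin and 11.7 after TrypLE at 0 h. At 8 h it was 4.98 and 4.91, and at 24 h 3.97 and 3.94. It was high in both 0 h groups and within 2-fold of the control in the other groups, an early course with either enzyme. The differences from control after trypsin and TrypLE were 2.08 and 1.51 at 0 h and 0.42 and 0.40 at 8 h. At 24 h the difference was 0.15 with each enzyme. With 5 in place of 1 added to the means, the TrypLE difference at 0 h was 0.98, under 2-fold, so that the TrypLE course is no longer early.

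Gene 103240638, the next furthest above the control, was high late. Its mean was 79.2 in the control and 103 and 119 at 0 h after trypsin and TrypLE. At 8 h it was 40.4 and 32.6, below the control, and at 24 h 287 and 333, the highest of its 7 means. From 8 to 24 h the step was 2.80 after trypsin and 3.31 after TrypLE on the log2(mean + 1) scale. The difference from control at 8 h was -0.95 after trypsin and -1.26 after TrypLE, so that the TrypLE course alone crossed 2-fold on both sides, though the enzymes were 0.30 apart.

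The member furthest below the control was gene 103234667. Its mean was 40.5 in the control, 14.9 and 16.4 at 0 h after trypsin and TrypLE, and 3.67 and 4.53 at 8 h. At 24 h it had come back to 9.26 after trypsin and 19.8 after TrypLE. All 6 means were below the control, and those at 8 h were the lowest. It was the only member at least 2-fold apart between enzymes at 24 h, by -1.02.

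Gene 103246494, the next furthest below the control, was low at 0 h with either enzyme and near the control at 8 h after TrypLE only. Its mean was 29.9 in the control, 3.00 after trypsin and 2.78 after TrypLE at 0 h. At 8 h it was 7.57 after trypsin and 31.1 after TrypLE, and at 24 h 3.84 and 7.40. The TrypLE mean at 8 h was close to the control and the other 5 were well below it. Its TrypLE course still counts as lasting, with differences from control of -3.03, 0.06 and -1.88 at 0, 8 and 24 h. The step from 0 to 8 h was 1.10 after trypsin and 3.08 after TrypLE, and the enzymes were -1.90 apart at 8 h.

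**Figure D3:**
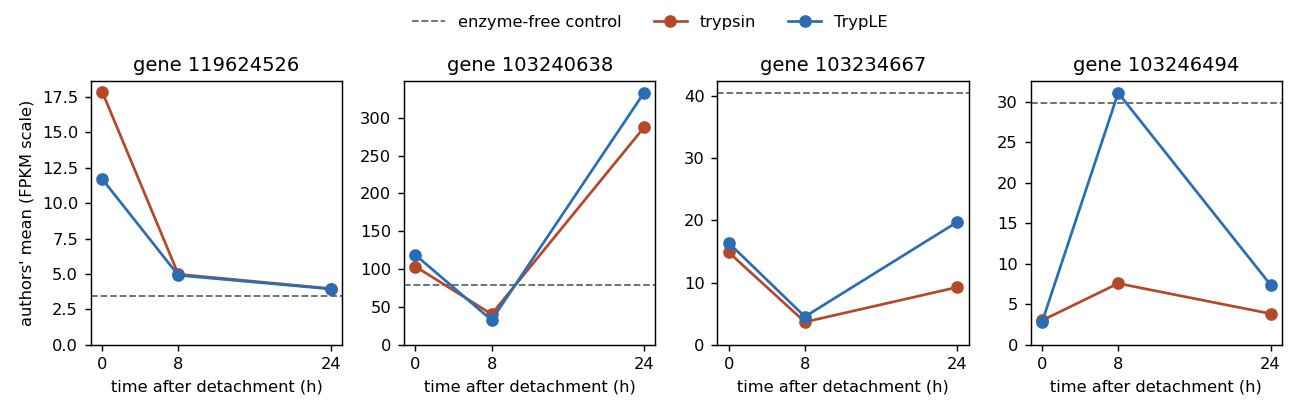
The authors' FPKM-scale means of the 2 genes furthest above and the 2 furthest below the control are plotted by time after detachment for trypsin and TrypLE, with the control as a dashed line. Gene 119624526 is high at 0 h only, 103240638 dips at 8 h and peaks at 24 h at 287 and 333, 103234667 is lowest at 8 h, and 103246494 separates the enzymes at 8 h, at 7.57 and 31.1.

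Among the members, the enzymes were further apart at 8 h than at 24 h. This did not hold over all 340 genes, of which 52, 21 and 27 were at least 2-fold apart at 0, 8 and 24 h. Set directly against each other, with no use of the control, 0 of 134 members were at least 2-fold apart at 0 h, where the choice of members fixes the likeness and 15.3% of all 340 genes were apart. At 8 h 11 members were at least 2-fold apart, or 4 higher after trypsin and 7 higher after TrypLE, against 2.94% and 3.24% of all 340 genes. At 24 h 1 was, against 7.94%. Among the other 206 union genes the numbers were 52, 10 and 26. The median distance between enzymes, regardless of direction, was 0.14 at 0 h, 0.31 at 8 h and 0.22 at 24 h in the members. In the other 206 genes it was 0.69, 0.23 and 0.40. At 24 h 90 of 134 members were lower after trypsin than after TrypLE, with a median of -0.15, whereas the median of the other genes was 0.25.

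The 7 members higher after TrypLE at 8 h were between 1.13 and 2.10 higher on the log2(mean + 1) scale, with highest group means from 6.47 to 76.9. At 0 h their differences between enzymes lay between 0.00 and 0.24, and at 24 h between -0.80 and 0.24. Of the 7, 4 were at least 2-fold above the control at 8 h after TrypLE, and 0 after trypsin. One of them had means of 23.5 in the control, 16.2 at 0 h with each enzyme, 20.5 and 76.9 at 8 h after trypsin and TrypLE, and 16.6 and 20.1 at 24 h. Only the TrypLE mean at 8 h stood out in it. Another went from 1.24 in the control to 6.47 at 8 h after TrypLE and was between 0.272 and 1.07 in the other 5 groups. The remaining 3 of the 7, gene 103246494 among them, were below the control at 0 h with either enzyme and at 8 h after trypsin. At 8 h after TrypLE their differences from control were 0.06, -0.01 and 0.82.

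The 4 members higher after trypsin at 8 h were between 1.06 and 1.25 higher. Of these, 2 were at least 2-fold above the control at 8 h after trypsin. The larger had means of 42.8 in the control, 72.8 and 63.1 at 0 h after trypsin and TrypLE, 148 and 70.7 at 8 h, and 97.8 and 106 at 24 h. It was above the control in all 6 groups and apart between enzymes at 8 h alone. The other had 7.74 in the control, 25.8 and 10.8 at 8 h, and 18.8 and 19.4 at 24 h. In the remaining 2, the TrypLE mean at 8 h was at least 2-fold below the control, and the trypsin mean was within 0.19 of it. At 24 h all 4 were within 0.12 between enzymes. Without values for single libraries at 8 h, it was not tested whether any of these 11 differences exceeds the spread between replicates.

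**Figure D4:**
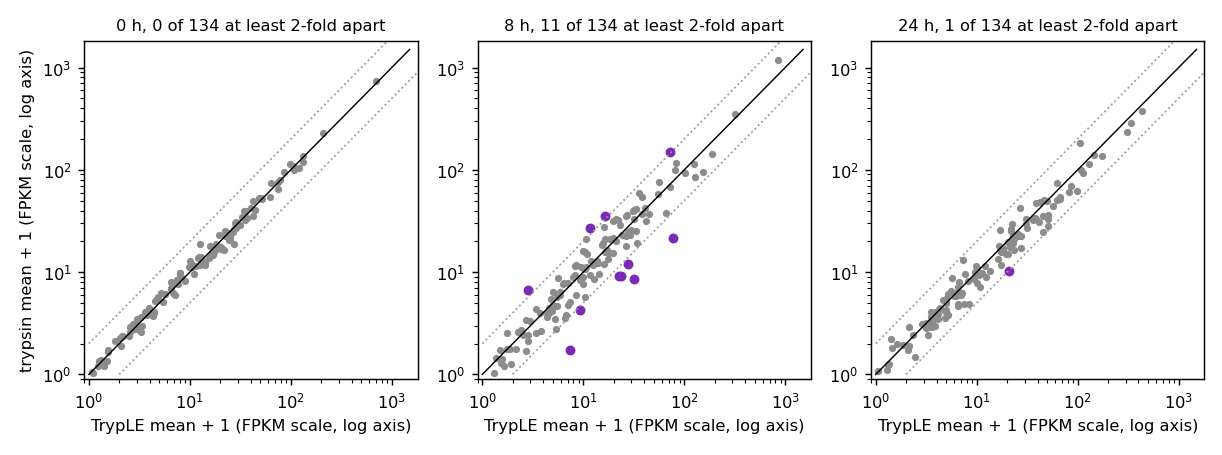
Each point is 1 of the 134 genes, with its TrypLE mean + 1 on the horizontal and its trypsin mean + 1 on the vertical log axis, at 0, 8 and 24 h, the solid line marking equality and the dotted lines a 2-fold difference. Points past the dotted lines are purple and number 0, 11 and 1, and the cloud is widest at 8 h.

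Classed against the control, the enzymes shared 7 members past 2-fold on the same side at 8 h, 1 above and 6 below, and 9 at 24 h, 4 above and 5 below. Of the other 206 genes, 14 were shared at 8 h and 3 at 24 h. At 8 h 10 members were past 2-fold with 1 enzyme alone and at least 2-fold apart between enzymes, 4 with trypsin and 6 with TrypLE. At 24 h 0 were. Of the other 206 genes, 5 were specific in this sense at 8 h and 16 at 24 h. A further 17 members at 8 h and 13 at 24 h were past 2-fold with 1 enzyme but less than 2-fold apart, and so cannot be called specific to it by this rule. Among the other 206 genes these numbered 7 at 8 h and 10 at 24 h. At no time was a member at least 2-fold above the control with one enzyme and 2-fold below it with the other. These classes rest on a shared control mean, so they sort the genes and do not measure how alike the enzymes were.

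Steps in time within an enzyme use libraries that the other enzyme does not share. From 0 to 8 h, 5 members went up and 9 down by at least 2-fold after trypsin, against 11.5% and 6.47% of all 340 genes. After TrypLE 11 went up and 10 down, against 4.41% and 9.41%. These steps start at 0 h, the time by which the members were chosen. Of the other 206 genes, 168 were lower after trypsin than after TrypLE at 0 h. The shares of all 340 genes are thus no neutral background for the step from 0 to 8 h. From 8 to 24 h, 12 went up and 8 down after trypsin, against 7.06% and 4.12%, and 21 up and 12 down after TrypLE, against 12.1% and 5.59%. The step from 8 to 24 h was at least 2-fold up with both enzymes in 9 members and down with both in 2, while 31 made it with 1 enzyme alone and 0 in opposite directions. Of the other 206 genes, 6 went up with both, 4 down with both, 23 with 1 enzyme alone and 1 in opposite directions. Across the 134 members the trypsin and TrypLE steps from 8 to 24 h had a Pearson r of 0.71 and a Spearman rho of 0.68, and across the other 206 genes 0.50 and 0.45. These are descriptions across genes, which are not independent replicates. All points share the same 4 group means.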

How the data were processed

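RNA of 30 Vero samples was sequenced. The submitters' processing notes name HISAT2 2.0.5 for alignment and featureCounts 1.5.0-p3 for counting. Neither the build nor the annotation is named there. The union table holds 1 mean per group, deposited by the authors with no unit in its header. For the 206 genes present in both tables, the 0 h means are the comparison table's normalized counts over gene length in kilobases and over a constant of 15.8 for trypsin and 15.7 for TrypLE. The coefficient of variation of that constant was 0.0143% and 0.00642%, so the authors' values are on an FPKM scale. The library columns of the comparison table hold a signal that the authors scaled between libraries. Their log2 fold change is trypsin over TrypLE, and the p-value there is the authors' own. These columns served only for the spread between libraries, the edge of the choice of members and a wider choice of members. Gene lengths are the authors'.

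Differences were taken as log2(mean + 1) with Python 3.11.15, pandas 2.3.3 and numpy 2.4.6, with no filter on low values. No test was run, since the members have 1 value per group. The sorting into courses was tested on simulated data whose differences lay far from the 2-fold limit. That checks the rule only, and not how firmly members near the limit are classed. The members and lists were chosen with earlier results of these data known. Steps in time within an enzyme were added after the values were seen. Genes named by number are the 2 members furthest above and the 2 furthest below the control in any group, among those with a highest mean of at least 1. The 18 gene lists, 5 marker lists and a search for promoter motifs could not be applied to the members, because they need symbols or sequences.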

Additional observations from a re-analysis of the deposited data

How the results depend on the processing

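No paired analysis was possible because the members have 1 mean per group and no result comes from a test. The motif alternatives were not run, and leaving out a library was possible only for the spread at 0 h, where the median SD ran from 0.0876 to 0.236 after trypsin and from 0.0801 to 0.155 after TrypLE. Requiring a highest mean of at least 1 moved no count by over 1.5 times, and no difference of the 4 named genes that was past 2-fold changed sign under another pseudocount or with centring, but 4 such values came under 2-fold. With a pseudocount of 5, gene 119624526 was at 0.98 at 0 h after TrypLE and gene 103234667 at -0.88 at 24 h after TrypLE. With centring, 103234667 was at -0.91 at 0 h after trypsin and -0.86 at 24 h after TrypLE.

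The counts depend on the pseudocount, since many members are low. With 0.1 in place of 1, members past 2-fold numbered 25, 30 and 29 after trypsin at 0, 8 and 24 h and 25 and 27 after TrypLE at 0 and 24 h. Members past at any time after trypsin were 53, members shared by both enzymes 22, 16 and 19 at 0, 8 and 24 h, and specific members at 24 h 2. Members apart between enzymes were 18 at 8 h and 3 at 24 h, and steps from 0 to 8 h after TrypLE 32. With 5, members past 2-fold were 6, 11 and 6 after trypsin and 5, 11 and 8 after TrypLE, and members past at any time 17 and 20. Shared members were 4, 4 and 5, specific ones at 8 h 4, and members apart 6 at 8 h and 0 at 24 h. Steps were 7 and 5 after trypsin and 12 and 16 after TrypLE, from 0 to 8 h and from 8 to 24 h.

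By construction, counts move with the size asked for. At a 1.5-fold difference members past it were 41, 43 and 45 after trypsin and 43, 41 and 41 after TrypLE, 75 and 80 at any time, and 32, 25 and 30 shared. At a log2 difference of 1.5 they were 3, 8 and 4 and 3, 5 and 5, 11 and 12 at any time, 2, 2 and 3 shared, and 5 and 1 specific at 8 and 24 h. The larger number apart at 8 h than at 24 h held under each alternative tried for it. With the 53 listed genes of an adjusted p of at least 0.05 added, 3 genes were apart at 24 h. Centring on the median of all 340 genes gave 1 member apart at 0 h and 2 at 24 h, and moved the median difference between enzymes at 0 h from 0.03 to 0.57. The 340 genes were selected and mostly lower after trypsin at 0 h, so their median is no neutral reference.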
